A study of Mus musculus with 8 samples.

Results

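Mouse genes whose symbols consist of Gm and a number are gene models that were predicted from the genome sequence and have no functional name. Among them, 114 had at least 10 CPM (counts per 1000000 reads, scaled by the authors) in all 4 input libraries of mature mouse oocytes, out of 638 such genes in an input table of 10530 genes. These genes were therefore chosen by their input values, and their input levels are given below as a description with no test. RNA-Seq had been performed on MII oocytes (oocytes arrested at the second meiotic metaphase) of C57BL/6 RiboTagF/F;Zp3-Cre mice, in which the Cre recombinase is driven by the oocyte promoter Zp3 and makes the oocyte produce an HA-tagged ribosomal protein RPL22. Both age groups carried these alleles, and both were primed with 5 IU PMSG and, 48 h later, 10 IU hCG, with collection 13 h after hCG. Young mice were 1 month old and old mice, retired breeders, were 12 to 15 months old, with 2 pools of 200 oocytes per age. Of every lysate, 10% was set aside as input (total RNA) and the rest gave the HA library (RNA recovered with the tagged ribosomes). Nothing in the labels says which animals went into a pool, so the spread between pools may be partly technical. CPM are relative to the reads of a library, so how much RNA an oocyte held cannot be read from a level.

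Gm symbols cover several kinds of locus. A processed pseudogene is a DNA copy of a spliced mRNA that was put back into the genome, an unprocessed pseudogene is a duplicated stretch of DNA that lost its coding function, and a long non-coding RNA is a transcript without a recognised open reading frame. Oocytes are known for transcribing recently duplicated gene families, such as the oogenesins, which belong to the PRAME family of leucine-rich repeat proteins. A fully grown oocyte makes almost no new RNA, so that the RNAs measured in MII oocytes were stored earlier. The ratio of HA CPM to input CPM of a pool is called translation efficiency for coding genes. For non-coding RNAs and pseudogenes the same ratio is only HA over input.

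The libraries held between 37817382 and 59688578 reads on genes in the HA table and between 38276453 and 60052814 in the input table. The 114 Gm genes took 1.62% to 1.95% of the input reads and 1.50% to 2.04% of the HA reads. All 12 oocyte markers checked were present, with a summed level of 14248 to 21644 CPM in HA. Of 16 markers of cumulus and granulosa cells, the somatic cells around the oocyte, 9 were in the input table (154 to 307 CPM summed) and 4 were in the HA table (88.8 to 207 CPM), and none of 5 blood cell markers was in either table. Their part in the results below was not tested.

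Many of these genes are near-identical copies of better known genes, and this decides which reads can be told apart. The sequences below come from GENCODE release M21 transcripts on genome build GRCm38, are written 5′ to 3′ and show in capitals the bases that differ between a Gm gene and its copy. The first pair shows Gm10925 (chr1:24614562-24614651, minus strand), an unprocessed pseudogene, beside the start of mt-Atp6 of the mitochondrial genome (chrM:7927-8016, plus strand), with 0 differences over 90 bases.
Gm10925: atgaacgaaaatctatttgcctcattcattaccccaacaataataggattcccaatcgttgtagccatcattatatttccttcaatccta
mt-Atp6: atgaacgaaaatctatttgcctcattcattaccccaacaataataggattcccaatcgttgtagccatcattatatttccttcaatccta

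The second pair shows Gm29216 (chr1:24616099-24616188, minus strand) beside mt-Co1 (chrM:6390-6479, plus strand), where 1 of 90 bases differs.
Gm29216: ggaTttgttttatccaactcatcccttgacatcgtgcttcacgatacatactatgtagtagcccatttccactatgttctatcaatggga
mt-Co1: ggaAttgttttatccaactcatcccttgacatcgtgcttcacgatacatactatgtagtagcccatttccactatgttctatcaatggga

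The third pair shows a processed pseudogene, Gm7964 (chr7:83756694-83756783, plus strand), beside the coding part of Hnrnpk (chr13:58394552-58394641, minus strand), with the window of 90 bases that holds the most differences.
Gm7964: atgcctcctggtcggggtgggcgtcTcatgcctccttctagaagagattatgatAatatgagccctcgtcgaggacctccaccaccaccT
Hnrnpk: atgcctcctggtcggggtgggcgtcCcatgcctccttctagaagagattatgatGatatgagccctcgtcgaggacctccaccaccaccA

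The next set shows 1 window of the coding part of Oog1 (oogenesin 1, chr12:87606820-87606909, plus strand) in 3 members that are annotated as coding, Gm13023 (chr4:143793558-143793647, plus strand), Gm10436 (chr12:88177531-88177620, minus strand) and Gm2042 (chr12:87958654-87958743, plus strand). Capitals mark differences from Oog1, of which Gm13023 has 9, Gm10436 has 1 and Gm2042 has 0 in this window.
Oog1: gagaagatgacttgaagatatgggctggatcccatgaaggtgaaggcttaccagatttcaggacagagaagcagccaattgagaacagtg
Gm13023: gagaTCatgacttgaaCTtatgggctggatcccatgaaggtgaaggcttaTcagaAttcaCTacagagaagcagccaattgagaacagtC
Gm10436: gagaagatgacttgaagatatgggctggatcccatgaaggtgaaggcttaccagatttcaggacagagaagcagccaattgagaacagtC
Gm2042: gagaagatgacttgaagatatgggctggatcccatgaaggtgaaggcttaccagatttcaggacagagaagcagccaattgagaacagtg

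The last sequence is the first 120 bases of the longest annotated transcript of Gm1965 (exons between 89141005 and 89144586 of chromosome 6, plus strand), a long intergenic RNA, shown because this gene had the highest input level of the 114.
Gm1965: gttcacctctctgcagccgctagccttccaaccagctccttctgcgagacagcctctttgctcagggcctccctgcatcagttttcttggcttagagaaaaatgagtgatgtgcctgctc

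By the annotation, 46 of the 114 genes were pseudogenes, 45 were long non-coding RNAs and 21 were coding. Of the other pair, Gm43769 carries only the biotype TEC and Gm29595 had no entry. Among the pseudogenes, 27 were processed, 5 were transcribed processed, 9 were unprocessed and 5 were transcribed unprocessed. Among the long non-coding RNAs, 34 were lincRNAs, 4 were antisense and 7 were other processed transcripts. In 42 of the 114 genes, another annotated gene shared at least 95% identity over 100 or more bases, and these comprised 32 pseudogenes, 6 coding genes, 3 long non-coding RNAs and Gm43769. The spans of 28 genes overlapped another gene. The longest, Gm20388 on chromosome 8, spans 4435 kb and overlaps 209 genes. Counting without strand cannot separate such genes from what they overlap, and their values are uncertain for that reason, as are those of the near-identical copies.

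The minimum of 10 CPM cut through a continuous range of values. Just inside it were Gm42952, Gm4782 and Gm14276, each with a lowest input value of 10.3 CPM. Just outside were Gm15476, Gm44626 and Gm16581, with lowest values of 9.98, 9.96 and 9.87 CPM.

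Of the 114 genes, 112 (98.2%) were also in the HA table. The 2 that were not are both lincRNAs, Gm13346 on chromosome 2 and Gm43757 on chromosome 5. Gm13346 had input levels of 16.1 and 14.7 CPM in old and 22.6 and 17.1 CPM in young pools. Gm43757 had 10.9 and 21.3 CPM in old and 11.1 and 17.8 CPM in young pools. Both were near the lower end of the input range, and no HA level can be given for either. Among 4795 other genes with the same minimum in input, 99.8% were in the HA table. For long non-coding RNAs alone, it was 43 of 45 Gm genes (95.6%) and 40 of 41 other genes (97.6%). All 46 pseudogenes and all 21 coding Gm genes were in it. Of the 524 Gm genes under the minimum, 303 (57.8%) were in the HA table.

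Gm1965 (ENSMUSG00000090254.7) stood above the other Gm genes in total RNA. Its input level was 8868 and 8765 CPM in old and 4818 and 6961 CPM in young pools, and its HA level was 12479 and 18352 CPM in old and 6278 and 7726 CPM in young pools. HA exceeded input in each of the 4 pools, with ratios of 1.41 and 2.09 in old and 1.30 and 1.11 in young pools. Its neighbour Gm839, also a lincRNA, lies within 500 kb on chromosome 6. Gm839 had 1179 and 1091 CPM in old and 747 and 1065 CPM in young input. Unlike for Gm1965, its HA level was below its input level in each pool, with ratios between 0.286 and 0.452. Scaled to exon length, the mean input level was 3000.0 CPM per kb for Gm1965 and 554 CPM per kb for Gm839. Reads were counted over whole genes, introns included, and per kb of gene span the levels were 1150 and 201 CPM.

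The other genes among the 12 with the highest input CPM were of mixed type. The coding gene Gm15698, named Elobl in GENCODE M21 after elongin B, had between 883 and 1593 CPM in input and between 332 and 654 CPM in HA, with overlapping ages. Gm11545, an unprocessed pseudogene related to Tmem92 (84.2% identity), had between 347 and 596 CPM in input and 111 to 313 CPM in HA. The lincRNAs Gm3143 and Gm14635 had low ratios of HA to input in every pool, from 0.174 to 0.333 and from 0.120 to 0.316. Gm26561 overlaps 19 genes over 515 kb, and its ratio went from 0.128 to 1.76 between the 2 old pools. The remaining genes of the 12 (Gm13023, Gm10857, Gm13084, Gm44796 and Gm10436) had input levels between 179 and 950 CPM.

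**Figure D1:**
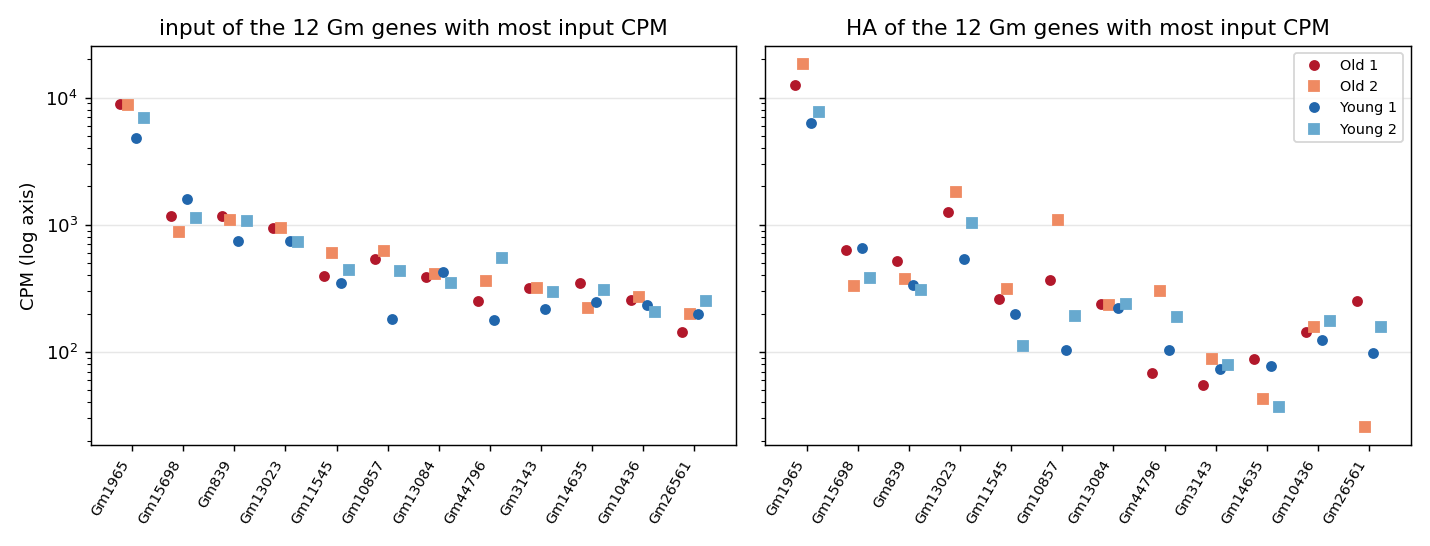
Input CPM (left) and HA CPM (right) of the 12 Gm genes with the highest mean input, on a log axis, with 1 point per library (red and orange, old pools; blue and light blue, young pools). Gm1965 lies highest in both panels, and Gm26561 and Gm44796 show wider gaps between the old pools in HA than in input.

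HA over input differed by kind of locus. HA and input were normalized separately by the authors, so a ratio of 1 is not an absolute mark, and since input is part of the ratio and chose the genes, the ratios are a description with no test. In the long non-coding Gm RNAs, the median ratio was 0.435 and 0.128 in old and 0.433 and 0.474 in young pools (n = 43 genes). In the coding Gm genes it was 0.689 and 1.14 in old and 0.723 and 0.801 in young pools (n = 21). The pseudogenes had medians of 0.750 and 0.877 in old and 0.789 and 0.878 in young pools (n = 46), so the long non-coding RNAs had the lowest median in each of the 4 pools. A median ratio over the pools above 1 was found for 2 of 43 long non-coding Gm RNAs (Gm1965 among them), 7 of 21 coding genes and 18 of 46 pseudogenes. A ratio below 1 in all 4 pools was found for 21, 5 and 13 of them.

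Among other genes with the same minimum in input, long non-coding RNAs were also below coding genes in 3 of the 4 pools. The 40 other long non-coding RNAs had median ratios of 0.432 and 0.141 in old and 0.501 and 0.779 in young pools, and the 4719 other coding genes had 0.831 and 0.806 in old and 0.735 and 0.735 in young pools. In the second young pool the long non-coding median was thus above the coding one. The spread between duplicate pools was also wide in the long non-coding Gm RNAs. Their median difference between the 2 old HA libraries was 2.00 on the log2(CPM + 1) scale, against 0.834 between the young HA libraries and 0.653 and 0.365 between the old and the young input libraries. For the coding Gm genes, the old HA libraries differed by a median of 1.38. In the 27 long non-coding Gm RNAs with neither a near-identical copy nor an overlapping gene, the median ratio was 0.298 and 0.149 in old and 0.320 and 0.342 in young pools. The 14 pseudogenes of this kind had 0.471 and 0.461 in old and 0.887 and 0.749 in young pools. The 9 coding genes had 0.721 and 1.44 in old and 0.921 and 0.853 in young pools.

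**Figure D2:**
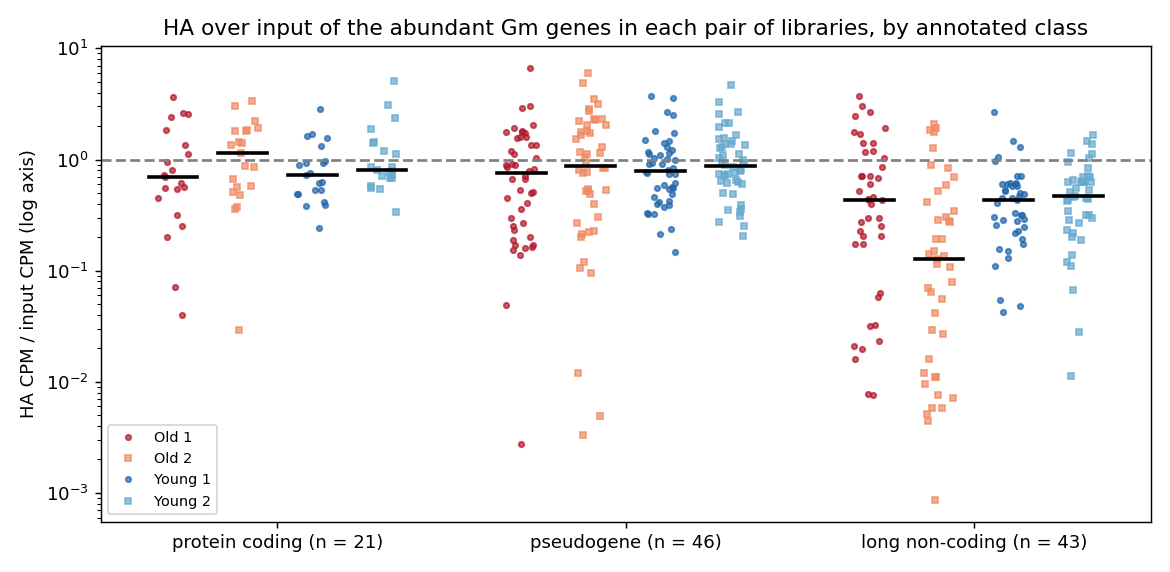
HA CPM over input CPM (log axis) of the Gm genes in each of the 4 pools, by annotated class, with 1 point per gene and a black line at the median (dashed line, ratio of 1). The long non-coding RNAs have the lowest median in each pool, and their values reach furthest down in the second old pool.

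The highest ratios belonged to pseudogenes and coding genes. Gm33962, a transcribed unprocessed pseudogene, had ratios of 2.03 and 6.03 in old and 3.60 and 3.28 in young pools. Gm6382, a processed pseudogene of Rbbp7 (a histone-binding protein, 97.1% identity), had 3.01 and 3.53 in old and 2.67 and 2.66 in young pools, so its pools lay close together. Gm7173, Gm7145, Gm6768 and Gm7964 followed, with medians of 2.70, 2.46, 2.25 and 2.22. All of these ratios were above 1 in every pool except for Gm7145, a coding gene with zinc finger-like sequence, at 0.853 in the second young pool.

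The lowest ratios were found in long non-coding RNAs, with medians of 0.0381 for Gm4593, 0.0752 for Gm15507, 0.0953 for Gm29016, 0.0964 for Gm43251, 0.0997 for Gm34121 and 0.117 for Gm38093. Their input level was between 19.7 and 72.5 CPM. For Gm4593 the pools did not go together, with HA levels of 132 and 0.850 CPM in old and 2.11 and 1.16 CPM in young pools. The 23 reads of the second old pool and the 5541 reads of the first stand far beyond the counting floor of 3 reads, and the reads carry no molecular identifiers, so this covers counting error only.

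A run of 6 unprocessed pseudogenes on chromosome 1 (chr1:24611535-24616197) copies part of the mitochondrial genome. In order along the chromosome they are Gm28439, Gm10222, Gm28437, Gm10925, Gm28661 and Gm29216. The first 5 matched mt-Nd4, mt-Nd4l, mt-Co3, mt-Atp6 and mt-Co2, subunits of the respiratory chain and of ATP synthase, at 100.0% identity over their whole annotated length, and Gm29216 matched mt-Co1 at 99.8% over 483 bases. Their summed input level was 777 and 848 CPM in old and 233 and 574 CPM in young pools. Both old pools were above both young pools. Their summed HA level was 152 and 625 CPM in old and 109 and 474 CPM in young pools, with ratios of HA to input of 0.195 and 0.737 in old and 0.468 and 0.825 in young pools. In HA the ages overlapped, and within each age the pools lay further apart than the ages did.

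The genes mt-Co2, mt-Atp6, mt-Co3 and mt-Nd4l lie almost wholly within the copies, and their mean input level was 104, 152, 28.7 and 271 CPM per kb. The partly covered mt-Co1 (31.3%) and mt-Nd4 (63.6%) had 2841 and 2938 CPM per kb, and mt-Nd1, mt-Nd2, mt-Nd5 and mt-Cytb, which no Gm gene of the run copies, had 1966 to 6263 CPM per kb. The other genes that none of the 114 copies, mt-Nd6, mt-Atp8 and mt-Nd3, had 452, 163 and 5.81 CPM per kb, so that not every uncopied gene was high. Gm10925 had 132% to 212% of the input level of mt-Atp6 in the 4 pools, Gm28437 had 133% to 151% of that of mt-Co3 and Gm28661 had 78.8% to 136% of that of mt-Co2. Gm28439 and Gm29216 had only 2.77% to 3.76% and 1.70% to 2.74% of the level of mt-Nd4 and mt-Co1. How multi-mapping reads were counted is not given in the sources used here, and reads of these 6 genes cannot be attributed to chromosome 1 rather than to mitochondria. Of the genes outside the copies, mt-Cytb (8296 and 8981 CPM in old, 3266 and 8118 CPM in young input) and mt-Nd1 (6044 and 7800 CPM in old, 2358 and 5712 CPM in young input) were, like the run, higher in both old input pools, as were the low mt-Atp8 (37.9 and 49.8 CPM in old, 11.8 and 33.6 CPM in young) and mt-Nd3 (2.33 and 2.29 CPM in old, 1.26 and 2.21 CPM in young). In mt-Nd2 (2625 and 2760 CPM in old, 881 and 2955 CPM in young input), mt-Nd5 (3423 and 4014 CPM in old, 2001 and 4908 CPM in young) and mt-Nd6 (211 and 282 CPM in old, 115 and 329 CPM in young) the ages overlapped. The first young pool had the lowest input value of each of these genes.

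All 5 transcribed unprocessed pseudogenes lie in a second run on chromosome 6 (chr6:130728161-131182379). Gm6600, Gm33962, Gm44133, Gm44134 and Gm5581 resemble each other and, among named genes, best matched Zfp616, a zinc finger gene, at 75.0% to 80.0% identity. Their summed level was 439 and 520 CPM in old and 150 and 360 CPM in young input, and 620 and 1577 CPM in old and 317 and 706 CPM in young HA. HA exceeded input in each pool, by 1.41 and 3.04 in old and by 2.11 and 1.96 in young pools. Gm33962 and Gm5581 carried the highest ratios. Single values below 1 were those of Gm44134 in the second young pool (0.389) and of Gm6600 in the first old pool (0.884). The coding genes Gm7145 and Gm29106 on chromosome 1 matched the same zinc finger gene, and their summed ratio was between 1.18 and 2.71.

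The oogenesin-like genes formed runs on chromosomes 4 and 12. Gm13023 (95.9% identical to Oog1), Gm13084 (98.0% to Oog2) and Gm13089 (80.4% to Oog3) lie together on chromosome 4, and Gm2042 (99.5% to Oog1) and Gm10436 (98.8% to Oog1) on chromosome 12, beside the pseudogene Gm7104. Gm13023 had 940 and 950 CPM in old and 746 and 726 CPM in young input. Its HA level was 1256 and 1817 CPM in old and 540 and 1026 CPM in young pools. Both fractions were higher in both old pools. Its neighbour Gm13084 had 386 and 413 CPM in old and 421 and 348 CPM in young input and 238 and 235 CPM in old and 223 and 237 CPM in young HA, with a ratio between 0.529 and 0.680. The HA values of Gm13084 thus lay within a narrow range in both ages. Gm10436 had 142 and 156 CPM in old and 123 and 175 CPM in young HA, and Gm2042 was low, at 14.0 to 26.0 CPM in input. Oog1 itself had a mean input level of 26.6 CPM, and reads could be split between such copies.

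**Figure D3:**
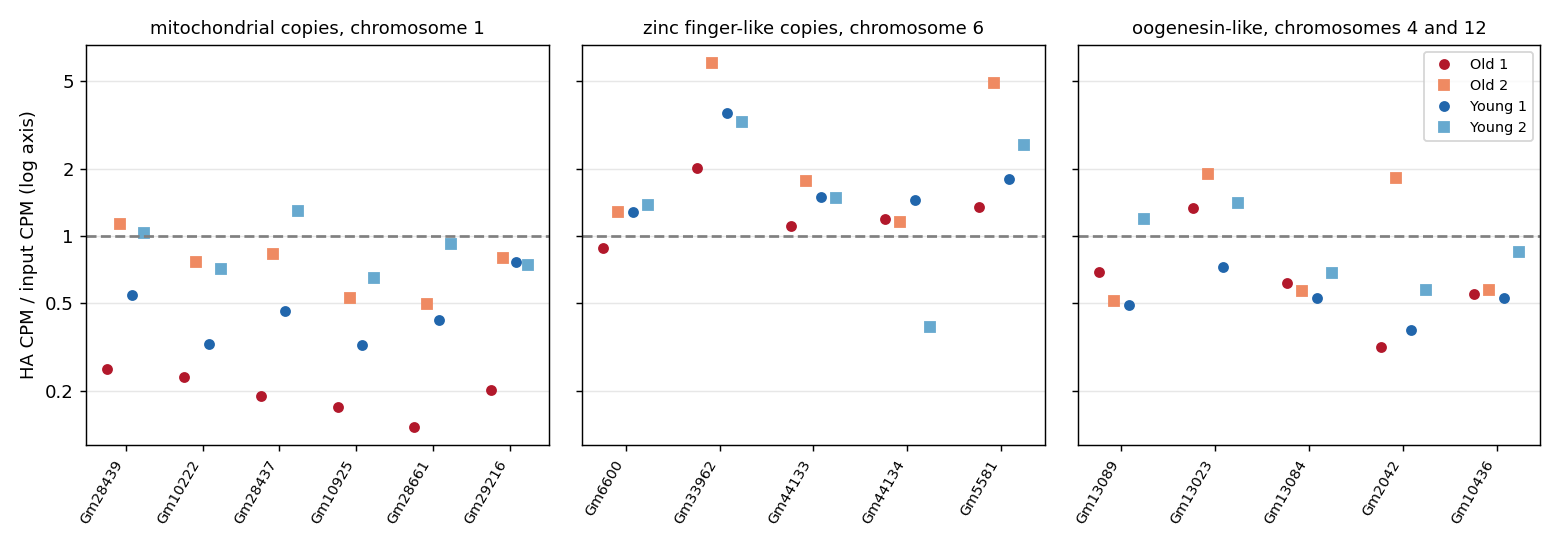
HA CPM over input CPM (log axis) per pool for the mitochondrial copies on chromosome 1, the zinc finger-like pseudogenes on chromosome 6 and the oogenesin-like genes on chromosomes 4 and 12 (dashed line, ratio of 1). The first old pool is lowest for each mitochondrial copy, and most values of the zinc finger-like pseudogenes lie above 1.

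Most other pseudogenes also matched a named gene, and how many copies each gene has was not counted. Of the 46, 38 matched a named gene at 80% identity or more over at least 50% of their length, 26 of them at 95% or more. Apart from the 6 mitochondrial copies, 32 had a nuclear counterpart, of which 29 were in the input table, and in 25 of these the named gene had the higher input CPM. Gm4202 (99.9% identical to Ywhaz, a 14-3-3 protein gene) had 2.01% of the input level of Ywhaz, and Gm7964 had 14.6% of that of Hnrnpk, an RNA-binding protein gene. Gm6768 (99.9% identical to Ncoa4, a receptor for ferritin turnover) had 39.0% of that of Ncoa4.

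Ratios of HA to input of pseudogene and named gene were also set side by side. In 23 of the 29 pairs in both tables the median ratios were within 2-fold, and in 20 pairs both lay on the same side of 1. The median ratios of other genes with the same minimum in input had quartiles of 0.465 and 1.20. Unrelated pairs were not counted, so these numbers cannot show that copies resemble each other more than other genes do. Gm6382 had 2.84 and Rbbp7 had 3.12, Gm6768 had 2.25 and Ncoa4 had 2.36, and Gm7964 had 2.22 and Hnrnpk had 1.63. Gm13456 had a ratio below 1 like its named gene Eef1a1, the elongation factor gene (0.392). Reads that match both copies could have been shared within such a pair, so the ratios of the 2 genes are not independent.

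Ribosome-bound RNA of old and young oocytes was then compared by limma on log2(CPM + 1) over all 8898 genes of the HA table. Differences on this scale understate changes of genes with low CPM. None of the 112 Gm genes had an adjusted p under 0.05, nor did any of the 8898 genes (percent called, 0), and the smallest adjusted p of a Gm gene in limma was 0.297. At an unadjusted p under 0.05, 3 Gm genes had higher and 3 had lower levels in old oocytes (2.68% each), against 4.28% of all genes higher and 10.5% lower. After rescaling all libraries to 1 common sum, it was 1 higher and 8 lower, against 1.26% of all genes higher and 14.4% lower. The median log2 difference of the Gm genes was 0.08, against -0.14 over all genes, and 61 had a positive and 51 a negative difference. Among the 4785 other genes with the same minimum in input, the median was 0.10, with 2572 positive and 2213 negative differences. After rescaling all libraries to 1 common sum, the median was -0.55 for the Gm genes and -0.68 over all genes. Both old pools were above both young pools in 24 of the 112 (17.2% of all genes) and below them in 25 (24.7% of all genes). An exact permutation test of 2 pools against 2 cannot give a two-sided p below 0.333.

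By class, the long non-coding Gm RNAs had a median log2 difference of -0.67, with 16 higher and 27 lower in old HA. The pseudogenes had 0.31 (30 higher, 16 lower) and the coding genes 0.10 (14 higher, 7 lower). The 40 other long non-coding RNAs gave -0.43, with 13 higher and 27 lower. These are descriptions of genes that share libraries, and the classes were not tested against each other. Medians by class were not taken after rescaling the libraries. Other values also differed by age in HA. The summed cumulus and granulosa cell markers were 144 and 88.8 CPM in old and 199 and 207 CPM in young HA, and 2.89% and 4.11% of the genes of the HA table had no reads in the old libraries, against 0.112% and 0.865% in the young ones. The part of both in these medians was not tested.

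Among the Gm genes that were higher in old HA, Gm10857, a lincRNA on chromosome 2 that overlaps 1 other gene, had the smallest p. Its HA level was 370 and 1088 CPM in old and 104 and 191 CPM in young pools. The old pools lay above the young pools, and its log2 difference was 2.16 (standard error 0.64, limma adjusted p = 0.297). In input, too, both old pools were above both young pools, at 539 and 620 CPM in old and 181 and 432 CPM in young. Gm1965 followed, with a log2 difference of 1.12 (standard error 0.34, limma adjusted p = 0.297) and HA means of 15416 ± 4153 CPM in old and 7002 ± 1024 CPM in young (SD, n = 2 pools each). After rescaling all libraries to 1 common sum, the log2 difference was 1.52 for Gm10857 and 0.48 for Gm1965. With quantile normalization, it was 1.52 and 0.20. The values of both ages did not overlap for Gm1965 in input either.

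Gm5723, a processed pseudogene on chromosome 6 (chr6:95250301-95254515) with no named counterpart, differed between the old pools. It had 1303 and 157 CPM in old and 71.1 and 60.3 CPM in young HA, and 194 and 149 CPM in old and 121 and 179 CPM in young input. Both old HA values exceeded both young ones, 1 of them by far. The log2 difference was 2.77 (standard error 0.96, limma adjusted p = 0.300), and it was the only Gm gene with an adjusted p under 0.05 when edgeR's likelihood ratio test was run on recovered reads (adjusted p = 0.0462). That test called 0.427% of all genes higher and 2.89% lower in old HA. In limma, the log2 difference of Gm5723 was 1.25 without the first old pool and 4.29 without the second, each resting on 1 old library. Other Gm genes with the smallest p on this side were Gm13023, Gm11545, Gm5581, Gm13752 and Gm33962, with log2 differences of 1.02, 0.95, 1.52, 1.61 and 1.00. In Gm5581 and Gm33962 the ages overlapped in HA. After rescaling all libraries to 1 common sum, the differences of these genes were 0.38, 0.31, 0.89, 0.99 and 0.36.

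Gm5177, Gm28784 and Gm15507 were nearly absent from both old HA libraries, as was Gm29016 (0.641 and 0.296 CPM). Both old HA values were under 1 CPM in these 4 of the 112 Gm genes and in 87 of the 4785 other genes with the same minimum. Both young HA values were under 1 CPM in 0 of the Gm genes and in 1 of those other genes. Gm5177, a transcribed processed pseudogene on chromosome 10 that matches Gapdh over part of its length, had 0.190 and 0.407 CPM (8 and 11 reads) in old and 23.6 and 15.7 CPM (1824 and 892 reads) in young HA. In input, it had 68.7 and 83.1 CPM in old and 31.9 and 50.9 CPM in young pools, so the old pools were lower in HA and higher in input. The log2 difference in HA was -3.97 (standard error 1.26, limma adjusted p = 0.297). The lincRNA Gm28784 had 0.428 and 0.185 CPM in old and 7.92 and 30.0 CPM in young HA, with a log2 difference of -3.68 (standard error 1.28, limma adjusted p = 0.300). The lincRNA Gm15507, which overlaps Nr2e3, had 0.238 and 0.554 CPM in old and 39.5 and 7.51 CPM in young HA, with a log2 difference of -3.74 (standard error 1.39, limma adjusted p = 0.313). Young pools were apart from old pools in Gm5177, Gm28784 and Gm15507. DESeq2 on reads recovered from CPM gave adjusted p values of 0.00134, 0.00330 and 0.00200 for them. It called 2 Gm genes higher (Gm5723 and Gm4593) and these 3 lower, against 1.46% of all genes higher and 4.35% lower, whereas edgeR's quasi-likelihood test called no Gm gene.

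The next genes on this side were Gm29016, Gm14276, Gm19757, Gm2788 and Gm30725, with log2 differences of -2.86, -3.59, -2.99, -3.43 and -1.58. In each, both old HA values were below both young values. Gm14276, a processed pseudogene related to Rps2 (85.9% identity), had 4.18 and 0.407 CPM in old and 47.5 and 20.9 CPM in young HA. Gm30725 had 28.8 and 23.9 CPM in old and 64.2 and 100 CPM in young HA.

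**Figure D4:**
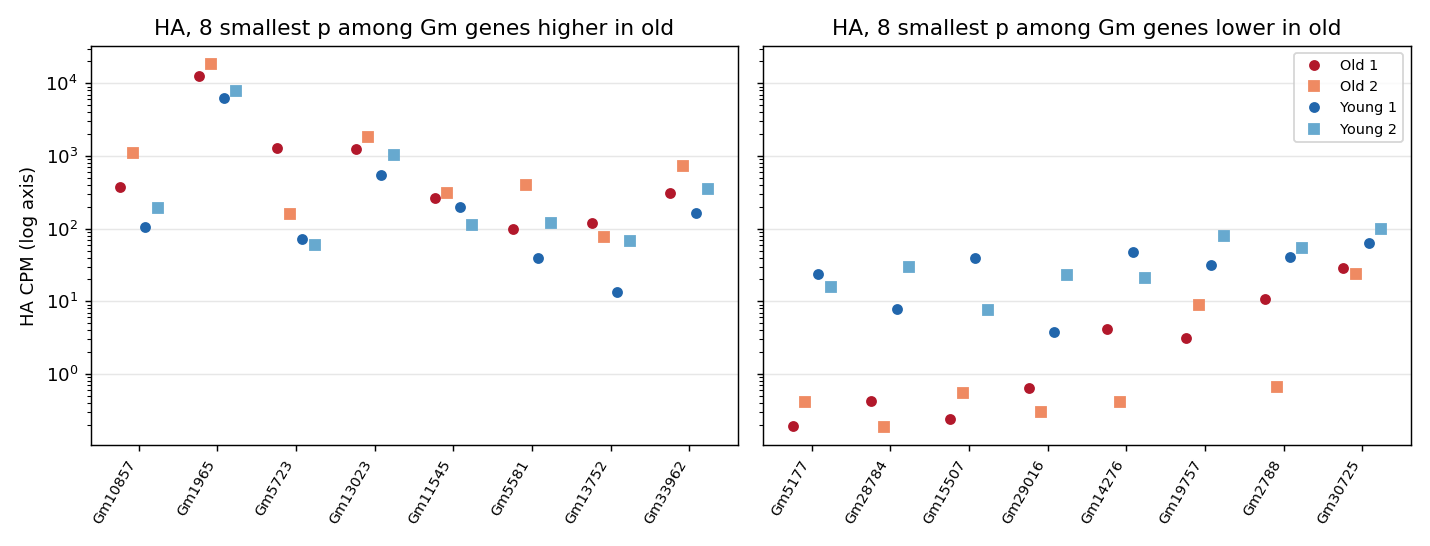
HA CPM (log axis) per pool of the 8 Gm genes with the smallest limma p among those higher (left) and those lower (right) in old oocytes. On the right, both old values lie below both young values for each gene, and on the left, the first old value of Gm5723 lies far above its other values.

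HA over input of old and young pools was also set side by side, over 8537 genes in both tables. Since input chose the Gm genes and is part of the ratio, their counts are a description beside those of all genes, and no p is given for a single Gm gene. None of the 112 Gm genes and none of all genes (percent called, 0) had an adjusted p under 0.05 in limma. At an unadjusted p under 0.05, 1 Gm gene (0.893%) had a higher and 5 (4.46%) had a lower ratio in old oocytes, against 2.98% and 3.51% of all genes. After rescaling all libraries to 1 common sum, it was 0 higher and 8 lower, against 1.25% of all genes higher and 5.52% lower. Gm5177 had ratios of 0.00277 and 0.00489 in old and 0.739 and 0.309 in young pools, a log2 difference of -4.86. The median log2 difference of the Gm genes was -0.23, against -0.10 over all genes, with 43 positive and 69 negative values. It was 0.04 for the 4785 other genes with the same minimum in input, with 2468 positive and 2317 negative values. After rescaling, the median was -0.65 for the Gm genes and -0.48 over all genes. Both old pools were above both young pools in 17 Gm genes (16.7% of all genes) and below them in 24 (22.8% of all genes). These shares were taken over the 8402 genes with input reads in all 4 pools.

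In input, where the values had chosen the genes, 80 of the 114 had a positive and 34 a negative difference between old and young means of log2(CPM + 1), with a median of 0.17. After rescaling all libraries to 1 common sum, the median was -0.01. The 4795 other genes with the same minimum had a median of 0.07 before rescaling, with 2664 positive and 2131 negative differences. Both old pools were above both young pools in 35 of the 114 genes (30.7%) and below them in 6 (5.26%). Over all 10530 genes, which include those under the minimum, these shares were 16.4% and 18.9%. The log2 ratio of old to young mean input was highest for Gm15754, a transcribed processed pseudogene related to Btf3, at 2.10. Gm15754 had 61.2 and 167 CPM in old and 32.3 and 21.1 CPM in young input. Gm28661, Gm44621 and Gm12474 followed, at 1.55, 1.46 and 1.44. The lowest values were -1.19 for Gm29811, -0.64 for Gm42952, -0.62 for Gm11413 and -0.57 for Gm15507. Gm29811 rested on 1 young pool, with 27.9 and 54.3 CPM in old and 138 and 50.0 CPM in young input.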

How the data were processed

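Libraries were prepared with random and oligo-dT primers. The authors trimmed the reads (Trimmomatic 0.36), aligned them to GRCm38 with HISAT2 and counted them per gene with HTSeq on GENCODE release M11, without strand and over whole genes, introns included. The signal values that the authors deposited are CPM after TMM normalization, set separately for HA and input. The highest value but 1 of any gene was at least 0.788 CPM in HA and 0.885 CPM in input. All columns were used (left out, 0).

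Each CPM value was a whole multiple of 1 read (tolerance 0.01; 100% of values), so reads were recovered; 3 reads were 0.0388 to 0.111 CPM in HA libraries. Old and young were compared with limma (lmFit, eBayes with trend, two-sided) on log2(CPM + 1), adjusted after Benjamini-Hochberg over all genes. Alternatives were other pseudocounts, filters, scalings, left-out pools, a replicate block, and edgeR and DESeq2 on recovered reads. The test was checked on simulated data. Replicate numbers of old and young pools share no source in the labels. Of the 114 identifiers, 113 were found in GENCODE release M21, and copies were searched with blastn among its transcripts (e-value under 1e-05) in place of a planned protein search, for which no protein table was used here. Members, lists and rules were chosen with earlier results of these data known. Named genes were the 12 with the highest input, the 6 highest and 6 lowest ratios, the 8 smallest p per direction in HA, calls of edgeR's likelihood ratio test, genes not in the HA table, 3 genes on each side of the minimum and the 4 largest and 4 smallest input differences, plus neighbouring runs and copies. Software was R 4.3.3 with limma 3.58.1, DESeq2 1.42.0 and edgeR 4.0.16, blastn 2.17.0 and Python 3.11.15 with pandas 2.3.3 and matplotlib 3.10.9.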

Additional observations from a re-analysis of the deposited data

Results flagged for a closer look

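In 8 of 112 Gm genes, the ratio of HA to input was above 1 in both pools of one age and below 1 in both pools of the other. The same was not counted over all genes, so whether 8 is many cannot be said. A ratio of 1 is also not an absolute mark, because HA and input were normalized separately. Of the 8, 3 were below 1 in old and above 1 in young pools. The processed pseudogene Gm14276 had ratios of 0.406 and 0.0121 in old and 3.71 and 1.10 in young pools, a log2 difference of -3.84. The coding gene Gm5065 had 0.0718 and 0.479 in old and 1.32 and 2.38 in young pools (-3.00), and the long non-coding RNA Gm11906 had 0.207 and 0.588 in old and 1.48 and 1.46 in young pools (-1.94). The 5 above 1 in old pools are processed pseudogenes. Gm5723 had 6.72 and 1.05 in old and 0.588 and 0.337 in young pools, a log2 difference of 2.56. Gm8930, Gm7353, Gm4865 and Gm14681 had log2 differences of 1.22, 1.19, 0.97 and 0.76, and several of their ratios lay close to 1, such as 1.03 in an old and 0.993 in a young pool for Gm14681. As for all 112 Gm genes, limma gave no adjusted p under 0.05 for these ratios. Since input chose the genes, the differences are a description only.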

How the results depend on the processing

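In HA, no Gm gene passed an adjusted p of 0.05 in limma with other pseudocounts, filters, scalings or with a replicate block (0 in HA and 0 in HA over input; same-number pools had deviations correlated at 0.0786 in HA and 0.0269 in input, so the numbers were not taken as pairs). Leaving out a pool gave 0 to 4 such genes in HA, the highest without the first old pool (Gm10857, Gm5434, Gm2788 and Gm11827, among 393 of all 8898 genes), and 0 to 2 in HA over input, also without the first old pool (Gm15754 and Gm11827, among 48 of 8537 genes). Without the second old pool it was 1 in HA (Gm5723, among 3 genes), and without the second young pool it was 0, among 634 genes. With recovered reads, the likelihood ratio test of edgeR called 1 (Gm5723) and DESeq2 called 5 (Gm5723, Gm5177, Gm28784, Gm15507 and Gm4593). The median HA difference of the Gm genes was -0.55 after rescaling to the same sum (all genes, -0.68), -0.17 for the 173 Gm genes whose mean input reached 10 CPM, and -0.17 to 0.25 when a pool was left out. The median difference in HA over input was -0.65 after rescaling to the same sum and -0.06 with DESeq2 size factors. The median input difference reversed to -0.01 after rescaling to the same sum, a setting chosen after seeing the data. With at least 20 CPM in all input libraries, 100% of 68 Gm genes were in the HA table. The causes of these shifts were not tested. The 16 genes named for their HA difference kept its direction in each alternative run. In the 14 pseudogenes without a near-identical copy or overlap, also chosen after seeing the data, the median ratio was 0.560 in place of 0.735. A level of 3 reads was at most 0.111 CPM in HA.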
